A study of Mus musculus with 8 samples.

Results

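The genes described here encode complement proteins, coagulation factors and serpins. They were chosen by symbol, with earlier results of these data known. Their symbols had to match those of C1q, C1r and C1s, complement components C2 to C9, complement factors B, D, H and I, mannose-binding lectins and their proteases, clotting factors, protein C, protein S, plasminogen, or any serpin. Of 8789 named genes on the array, 40 matched, and they occupied 46 of 20355 spots. A value in all 4 mice was available for 37 of them, which divide into 11 complement genes, 7 coagulation and anticoagulant genes and 19 serpins. The other 3 (C1qb, Mbl2 and Serpinb8) had values in 3 mice and were not tested. Other genes that these symbols cover, such as C3, C9 and F9, are not analysed here.

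Complement and coagulation proteins and many serpins circulate in blood, and hepatocytes secrete most of these. Serpins of clade B are intracellular. Complement and coagulation are cascades in which one serine protease cuts and activates the next. Serpins are the inhibitors that trap such proteases, and members without that activity carry hormones or fold collagen. Several of these proteins are acute phase proteins, whose synthesis in the liver follows inflammatory cytokines.

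Liver RNA came from 4 male Eps8KO mice aged 17 weeks, which lack the actin regulator Eps8 in the whole animal. Each mouse was set against a pool of liver RNA from male WT mice of the same age on 2-colour cDNA arrays, once with its RNA in Cy5 and once in Cy3, which gave 8 arrays. The sources disagree on the size of this pool, with 5 animals by the listed identities, 6 by the labelling protocol and 4 by the design. The pool is 1 control sample, so no test here includes the spread between WT mice.

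Values are log2 ratios of Eps8KO over the WT pool, averaged over the 2 arrays of a mouse and then over the spots of a gene. Each array held 17968 to 18802 values, with medians from -0.28 to -0.08 before the sign was turned. Eps8 itself had no named probe, so its loss could not be seen in these values. Gene names depend on a shift of 32 between row numbers and probe numbers that was found from the values, as no source used here states it. In a check with 257 probes of housekeeping and liver genes, none of them among the 40, 0 of 2000 other shifts gave noise as low. Most of these gene families had been in a first scan that already put this shift lowest, so the check is not a fresh one. In the lowest of 6 blocks of probe numbers, however, 22.7% of other shifts did, against 0 to 3.8% in the other 5 blocks. That first block names 11 of the 40 genes, among them Serping1, Cfi, Serpina10 and Serpina12. In the earlier work that found the shift, low ratios of acute phase genes were counted in its favour, so a low value of an acute phase gene here is not independent of its name.

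Among the 37 genes tested, 8 were called lower in Eps8KO liver, meaning an unadjusted p under 0.05 against 0 in limma, and 0 were called higher. The 8 were Serpina10, Cfb, Mbl1, Serpina12, C4a, C2, Serping1 and Cfi, which made up 21.6% of the genes tested. Over all 15455 features of the array, 3.09% were called lower and 2.15% higher by the same rule. As the genes were chosen with earlier results known, their share is not that of a list set beforehand. At an additional limit of 1.6-fold, 3 of the 37 (Serpina10, Cfb and Mbl1) were lower against 1.57% of all features, and 0 were higher against 1.06%. After Benjamini-Hochberg adjustment in limma over all features, 0 of the 37 and 0% of all features had an adjusted p under 0.05. The smallest adjusted p was 0.557 among the 37 and 0.119 over the array. In tissue RNA, fewer cells of a type and less RNA per cell cannot be told apart.

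The ratio lay below 0 in all 4 mice for 11 of the 37 genes, against 7.07% of all features, and above 0 in all 4 mice for 2, C1s1 and Serpinf1, against 7.54%. Besides the 8 genes called lower, C1rl, F10 and Serpina1b were below 0 in every mouse. The median over the 37 genes was -0.11, and the medians in mice 1 to 4 were -0.03, -0.10, -0.15 and -0.36. The median over all features was 0.02, with mouse medians from -0.004 to 0.021. Mouse 4 had the lowest median of the 4 and was the lowest mouse for C4a, C2, Cfi, Serping1, Serpina10 and Serpina12. Its Cy3 array stood furthest from the others, with C2 at -1.92 and Serping1 at -2.09. The Cy3 arrays of the other mice had -1.206 to -0.973 and -1.218 to -1.125. In Cy5, mouse 4 had 0.18 and 0.48, near the other mice (0.20 to 0.54 and 0.10 to 0.72). Serpina10 had no Cy5 value in mouse 4. Whether a dye effect on 1 array lowered mouse 4 was not tested. The SD between mice had a median of 0.27 over these genes and 0.43 over all features. It was 0.23 for the 30 genes with a value on all 8 arrays and 1.16 for the other 7.

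**Figure D1:**
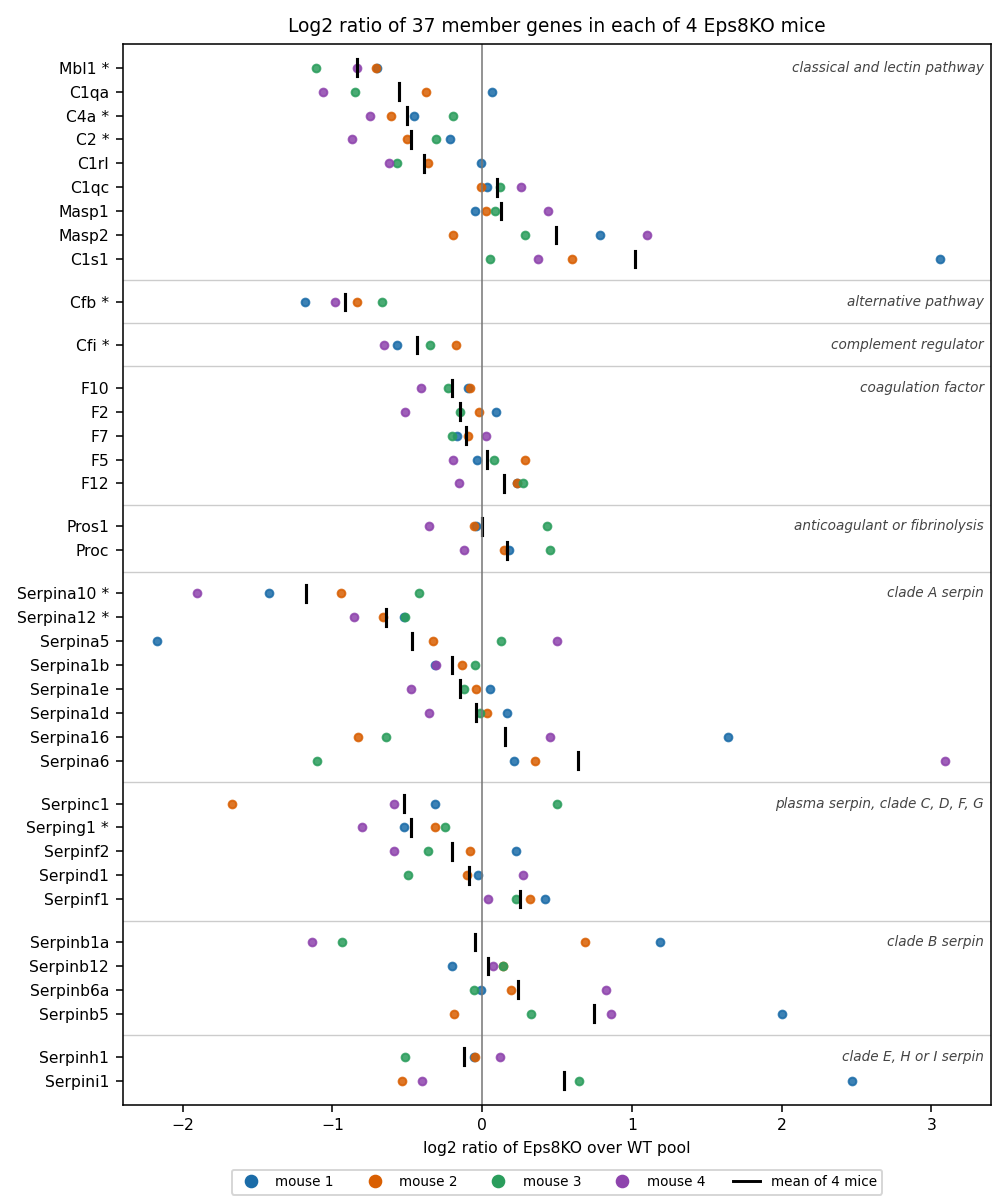
Log2 ratio of Eps8KO over the WT pool (x axis) for each of 37 genes (rows, grouped by role), with 1 point per mouse and a black bar at the mean of 4 mice. An asterisk marks the 8 genes with an unadjusted p under 0.05, whose points all lie left of 0, while the 7 coagulation and anticoagulant genes have means from -0.20 to 0.16.

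**Figure D2:**
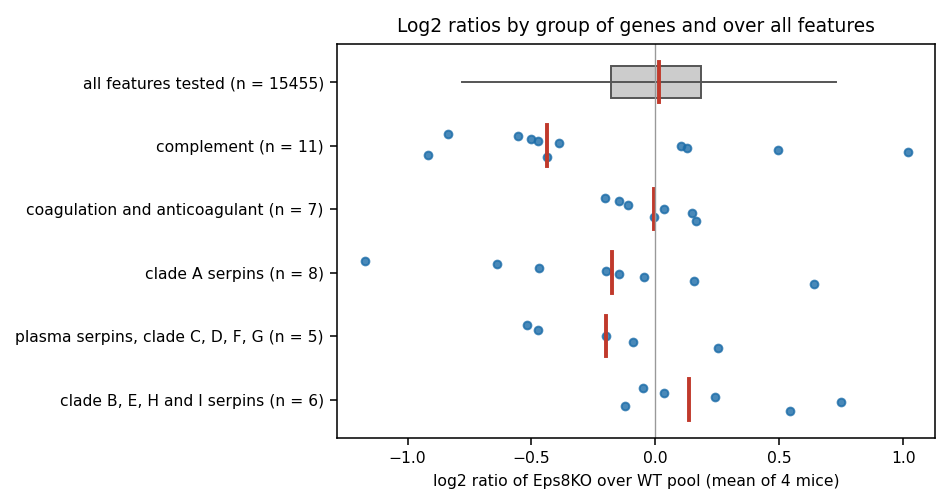
Log2 ratio of Eps8KO over the WT pool (x axis, mean of 4 mice) by group of genes, 1 point per gene with a red bar at the median; the first row shows all 15455 features as a box from the 25th to the 75th percentile with lines to the 5th and 95th. The complement median lies at -0.44, the coagulation median at 0.00 and the median of all features at 0.02.

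Complement genes held 5 of the 8 calls. Of 11 tested, 5 were called lower (3.09% of all features), 6 were below 0 in all 4 mice (7.07%) and 1 was above 0 in all 4 (7.54%). The median was -0.44, with mouse medians from -0.66 to -0.05. Grouped by symbol, the 5 stand at 3 steps of the system, with Mbl1, C4a and C2 in the classical and lectin pathways, Cfb in the alternative pathway and Cfi as a regulator. The C4a call rests on a spot with a missing array, and the C2 call is lost when any mouse is left out. C2, C4a and Cfi were above 0 in the Cy5 orientation.

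Factor B, encoded by Cfb, supplies the protease of the alternative pathway C3 convertase. Its log2 ratios in mice 1 to 4 were -1.18, -0.83, -0.67 and -0.99. The mean of -0.92 ± 0.22 (SD) is 1.89-fold lower expression in Eps8KO liver, with a 95% interval from -1.29 to -0.55 (limma, unadjusted p = 0.00179, adjusted p = 0.557). Both of its spots were measured on all 8 arrays, and they averaged -0.99 and -0.84. Every one of these arrays gave a value below 0 for both spots, though the orientations differed, with -0.23 when Eps8KO RNA was in Cy5 and -1.60 when it was in Cy3. In a limma fit of the 8 arrays with a dye term and the mouse as a random block, which 30 of the 37 genes could enter, Cfb had an adjusted p of 0.0126 and no other of them passed. That fit called 0.256% of its 11727 features lower and 0.0426% higher at an adjusted p under 0.05. It found a correlation within mice of -0.00244 and so counted the 2 arrays of a mouse almost as independent samples, although they hold the same RNA.

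Mbl1 encodes mannose-binding lectin A, which binds sugars on microbes and starts the lectin pathway. Mice 1 to 4 gave -0.70, -0.71, -1.11 and -0.84, so all 4 lay at least 0.70 below the pool. The mean of -0.84 ± 0.19 (SD) is 1.79-fold lower, with an interval from -1.19 to -0.49 (limma, unadjusted p = 0.00202, adjusted p = 0.613). By orientation it was -0.14 in Cy5 and -1.54 in Cy3. Leaving out any 1 mouse kept both Cfb and Mbl1 at an unadjusted p of 0.0103 or less. Mbl2, the other mannose-binding lectin of the mouse, had values on 4 arrays only, with values from 0.36 to 1.75 in mice 1, 3 and 4.

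Of the 8 genes called lower, Mbl1 and Serpina12 have a promoter in the RefSeq table used, so their 250 bases upstream of the start are shown with matches to 3 motifs of acute phase regulation. The motifs, searched on both strands, were TTCNNNGAA (STAT), TTGCNNAA (C/EBP) and GGGA followed after any 4 bases by CC (NF-kB), and they were picked after the values were known. Capitals mark the matches in the lines here, which are from assembly GRCm38.p6, at chr14:41151206-41151455 on the plus strand for Mbl1 and at chr12:104044444-104044693 on the minus strand for Serpina12, both 5′ to 3′.
Mbl1: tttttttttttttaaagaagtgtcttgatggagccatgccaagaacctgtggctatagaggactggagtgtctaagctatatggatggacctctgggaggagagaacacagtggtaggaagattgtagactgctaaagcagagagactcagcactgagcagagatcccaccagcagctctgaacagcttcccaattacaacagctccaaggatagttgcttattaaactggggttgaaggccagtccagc
Serpina12: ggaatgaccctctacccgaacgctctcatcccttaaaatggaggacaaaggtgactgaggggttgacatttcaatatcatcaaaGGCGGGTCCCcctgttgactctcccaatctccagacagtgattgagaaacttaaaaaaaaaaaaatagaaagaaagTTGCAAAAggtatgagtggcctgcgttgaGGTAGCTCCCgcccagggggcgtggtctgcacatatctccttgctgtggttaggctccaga
The Mbl1 stretch held none of the 3 motifs. The Serpina12 stretch held the C/EBP letters 90 bases before the start and the NF-kB letters, on the opposite strand, 166 and 61 bases before it. Over 32851 promoters of the same length, 7.02% held the STAT letters, 9.56% the C/EBP letters and 17.6% the NF-kB letters. Of the 29 genes described here that have a promoter in the table, 3, 8 and 10 held them in at least 1 promoter. These counts are of genes, and C1s1, Serpinb12 and Serpinb6a had 2 promoters each, so they do not compare directly with shares of promoters. The genes with the C/EBP letters include the near copies Serpina1b, Serpina1d and Serpina1e. These matches describe letters only.

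C4 and C2 follow the first proteases of the classical and lectin pathways and together form their C3 convertase. C4a is placed here by its symbol only, as RefSeq annotates it as a transcribed pseudogene. C2 had -0.22, -0.50, -0.31 and -0.87 in mice 1 to 4, with mouse 4 lowest. Its mean was -0.47 ± 0.29 (SD), or 1.39-fold lower (limma, unadjusted p = 0.035, adjusted p = 0.906). The orientations had opposite signs, 0.33 in Cy5 and -1.28 in Cy3, and no mouse could be left out without the p rising above 0.05, to between 0.0526 and 0.101.

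C4a averaged -0.50 ± 0.24 (SD), with -0.46, -0.61, -0.20 and -0.75 in mice 1 to 4 (limma, unadjusted p = 0.0201, adjusted p = 0.906). Its 2 spots did not match each other. The spot on 7 arrays averaged -1.05, with mouse values from -1.58 to -0.60, while the spot on all 8 arrays averaged 0.04, with mouse values from -0.16 to 0.20. The call therefore rests on the spot with a missing array, and without it C4a lay at 0.04. With both spots kept, the p exceeded 0.05 without mouse 1, 2 or 4. RefSeq annotates C4a in GRCm38.p6 as a transcribed pseudogene, and its sequence is close to that of C4b, so a cDNA spot may bind RNA of both. C4a, C2 and Cfb all lie on chromosome 17, where Cfb and C2 are neighbouring protein-coding genes.

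Cfi encodes factor I, the protease that cuts C3b and C4b and so limits complement. The 4 mice gave -0.57, -0.17, -0.35 and -0.66, a mean of -0.44 ± 0.22 (SD) or 1.35-fold lower (limma, unadjusted p = 0.0289, adjusted p = 0.906). The Cy5 arrays averaged 0.14 and the Cy3 arrays -1.01. Without mouse 1, 3 or 4 the p exceeded 0.05, and its probe is in the block of numbers where the naming is least certain.

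The other complement genes were not called. C1qa, a chain of the C1q recognition molecule, had 0.06, -0.37, -0.85 and -1.07 in mice 1 to 4, so 3 of 4 mice were below 0 (mean -0.56 ± 0.50 SD, limma, unadjusted p = 0.0675). C1qc, another chain of the same molecule, averaged 0.10 ± 0.12 (SD), with all mice between -0.01 and 0.26. The third chain, C1qb, had values on 4 arrays, with -0.10 and -1.86 in mice 3 and 4 and -15.67 in mouse 1. The last stands on 1 array and equals the highest value of that array, which is repeated 103 times there.

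C1s1, which encodes the protease that cuts C4 and C2, was the highest of the 37 genes at 1.02 ± 1.38 (SD). Its mouse values of 3.06, 0.60, 0.05 and 0.38 show that mouse 1 carried most of it, on a single array in Cy3, and without that mouse the mean was 0.34. Masp2, a lectin pathway protease, averaged 0.49 with 0.79, -0.19, 0.29 and 1.10 in mice 1 to 4. Its spot on 8 arrays averaged -0.14 and its spot on 6 arrays 1.13, so the sign depended on the spot. C1rl, a protease related to C1r, had -0.01, -0.36, -0.57 and -0.62 (mean -0.39, limma, unadjusted p = 0.0584), and its 2 spots averaged -0.61 and -0.17. Masp1 averaged 0.13 ± 0.21 (SD).

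**Figure D3:**
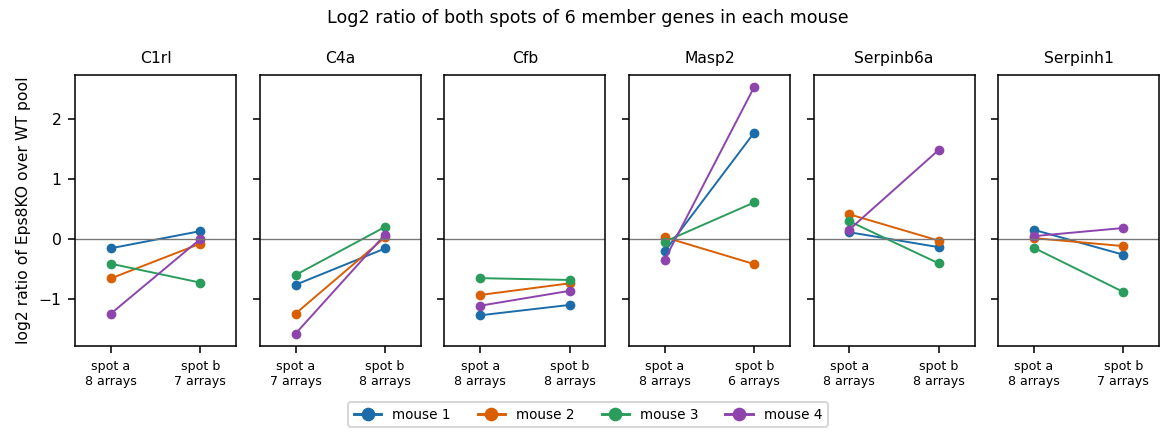
Log2 ratio of Eps8KO over the WT pool (y axis) on both spots of the 6 genes with 2 named spots, with a line joining the values of a mouse and the number of arrays with a value under each spot. The Cfb spots average -0.99 and -0.84, while C4a goes from -1.05 to 0.04 and Masp2 from -0.14 to 1.13.

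Coagulation factors and anticoagulants held 0 calls in 7 genes tested. With 3.09% of all features called lower and 2.15% higher, 0 calls in so few genes is near the share of the array. Their means ran from -0.20 to 0.16 with a median of 0.00, and mouse medians from -0.20 to 0.08. Prothrombin (F2) averaged -0.15 ± 0.27 (SD), factor VII (F7), which starts clotting with tissue factor, -0.11 ± 0.10, and factor X (F10), which turns prothrombin into thrombin, -0.20 ± 0.15. Factor V (F5), the cofactor of factor X, averaged 0.03 ± 0.20 and factor XII (F12), which starts the contact pathway, 0.15 ± 0.20. Protein C (Proc), which inactivates factor V, averaged 0.16 ± 0.23 and its cofactor protein S (Pros1) 0.00 ± 0.33. F10 alone of these was below 0 in all 4 mice, with -0.10, -0.08, -0.23 and -0.41. The 95% intervals of the 7 means all lay between -0.55 and 0.54, inside a 1.6-fold change in either direction (0.68 on the log2 scale).

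Serpins held 3 calls, all lower, in 19 genes tested, against 3.09% of all features. Of these, 2 were in clade A and 1 among the plasma serpins of other clades. The median over all 19 was -0.09, over 8 clade A serpins -0.17, over 5 plasma serpins of clades C, D, F and G -0.20 and over 4 intracellular serpins of clade B 0.14. Clade B held 0 calls, and so did Serpinh1 and Serpini1.

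Serpina10 encodes the protein Z-dependent inhibitor of activated factor X, and had the lowest mean of the 37 genes. Mice 1 to 4 gave -1.43, -0.94, -0.43 and -1.90. The mean of -1.17 ± 0.64 (SD) is 2.26-fold lower, with a wide interval from -1.92 to -0.43 (limma, unadjusted p = 0.011, adjusted p = 0.848). Its mean was -1.06 in Cy5 and -1.07 in Cy3, but the first covers mice 1 to 3 and the second all 4. In mice 1 to 3 the Cy5 arrays gave -1.31, -0.76 and -1.12, and the Cy3 arrays -1.55, -1.12 and 0.27. Of its 7 arrays 6 were below 0, and the exception was mouse 3 in Cy3 at 0.27. Mouse 4 had an array in Cy3 only, so a dye effect is not balanced there. Without mouse 4 the mean was -0.93, and over the 4 cases of 1 mouse left out the p ran from 0.00758 to 0.0455.

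Serpina12 encodes vaspin, a serpin known from adipose tissue and linked to insulin sensitivity. It had the smallest spread of the called genes, with -0.53, -0.66, -0.52 and -0.86 in mice 1 to 4. The mean of -0.64 ± 0.16 (SD) is 1.56-fold lower, with an interval from -0.97 to -0.31 (limma, unadjusted p = 0.00477, adjusted p = 0.750). The 4 Cy5 arrays averaged 0.03 and the 4 Cy3 arrays -1.31. In the limma fit with a dye term the ratio was again -0.64 (unadjusted p = 0.000771, adjusted p = 0.152). That fit counts the 2 arrays of a mouse almost as independent samples. Leaving out any 1 mouse kept the p of the mean between 0.0143 and 0.0234. Both Serpina10 and Serpina12 lie in the Serpina cluster of chromosome 12, which holds 8 of the genes described here, and both have probes in the first block of probe numbers.

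Serping1 encodes C1 inhibitor, which blocks C1r, C1s and the mannose-binding lectin proteases and also kallikrein and factor XII of the contact pathway. The mice gave -0.52, -0.31, -0.25 and -0.80, a mean of -0.47 ± 0.25 (SD) or 1.39-fold lower (limma, unadjusted p = 0.0273, adjusted p = 0.906). It was the called gene with the largest opposite value in the other orientation, 0.45 in Cy5 against -1.40 in Cy3. In the limma fit with a dye term the ratio was again -0.47 (unadjusted p = 0.00876, adjusted p = 0.518). That fit counts the 2 arrays of a mouse almost as independent samples. Without mouse 1, 2 or 4 the p of the mean exceeded 0.05.

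The alpha-1-antitrypsin genes Serpina1b, Serpina1d and Serpina1e, which encode inhibitors of neutrophil elastase, averaged -0.20 ± 0.13, -0.04 ± 0.22 and -0.15 ± 0.23 (SD) and were not called. Their means differed between the orientations, at 0.89 to 1.05 in Cy5 and -1.46 to -0.98 in Cy3. These genes are near copies, and their spots may bind RNA of one another, so they are not separate measurements. The likeness reaches upstream of the start, as in these 80 bases on the minus strand in GRCm38.p6 (RefSeq), where capitals mark the C/EBP letters in Serpina1b (chr12:103738290-103738369), Serpina1d (chr12:103773722-103773801) and Serpina1e (chr12:103957048-103957127).
Serpina1b: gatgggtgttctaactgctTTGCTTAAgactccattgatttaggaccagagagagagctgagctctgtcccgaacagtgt
Serpina1d: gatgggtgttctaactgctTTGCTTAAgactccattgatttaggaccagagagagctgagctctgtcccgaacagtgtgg
Serpina1e: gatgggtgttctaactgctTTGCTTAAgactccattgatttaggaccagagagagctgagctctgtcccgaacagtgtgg
Serpina1d and Serpina1e were identical over these 80 bases, and all 3 shared a run of 55.

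Serpins with a large mean and no call had a wide spread between mice. Serpina5, protein C inhibitor, had -2.17, -0.33, 0.13 and 0.50 in mice 1 to 4, and without mouse 1 its mean was 0.10. Serpina6, the corticosteroid-binding globulin of plasma, had 0.21, 0.35, -1.10 and 3.09, and without mouse 4, which had 1 array, its mean was -0.18. Serpinc1, antithrombin, had -0.31, -1.67, 0.50 and -0.59. None of these 3 had the same sign in all mice, and each missed 1 of the 8 arrays.

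Serpinb5, known as maspin, had 2.00, -0.19, 0.33 and 0.86 in mice 1 to 4 (mean 0.75 ± 0.94 SD, limma, unadjusted p = 0.125). Serpinb6a, an intracellular serpin, had -0.01, 0.19, -0.05 and 0.82, and its spots averaged 0.25 and 0.23. Serpinh1, the collagen chaperone of the endoplasmic reticulum, had -0.05, -0.05, -0.51 and 0.12, with spots at 0.02 and -0.27. Serpinf1, pigment epithelium-derived factor, was above 0 in each mouse, from 0.04 to 0.42 (mean 0.25 ± 0.16 SD, limma, unadjusted p = 0.105).

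The remaining serpins were not called either. Serpinf2 (alpha-2-antiplasmin) averaged -0.20, Serpind1 (heparin cofactor II) -0.09, Serpinb1a -0.05, Serpinb12 0.04, Serpina16 0.15 and Serpini1 (neuroserpin) 0.54. Serpinb8 had values on 4 arrays, with -3.51, -1.33 and -1.11 in mice 2 to 4.

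The ratio of a gene often depended on the dye. Over the 37 genes the median ratio of Eps8KO over WT was 0.10 with Eps8KO RNA in Cy5 and -0.32 with it in Cy3, while over all features the order was opposite, -0.20 and 0.25. Of the 37 genes, 22 had a higher mean in the Cy5 orientation, among them all 8 called lower and 6 of the 7 coagulation and anticoagulant genes. For Serpina10 the gap was only 0.01, between a Cy5 mean over mice 1 to 3 and a Cy3 mean over all 4, so its order is not settled. Averaging both orientations cancels a dye effect only if it adds the same amount on every array of a spot. This condition was not tested, and arrays of 1 orientation differed. On the Cy3 array of mouse 4, Serpina1e was -1.94 and F12 -1.01, against -1.16 to -0.78 and -0.43 to -0.31 in the other mice. In Cy5, mouse 4 had 0.99 and 0.70, against 0.73 to 1.07 and 0.80 to 0.89. An unequal dye effect would remain in part in the means. The limma fit with a dye term takes out an effect that is equal on every array. For spots on all 8 arrays its ratios equal the means by construction. This held for Cfb (-0.92), Mbl1 (-0.84), Serpina12 (-0.64), C2 (-0.47), Serping1 (-0.47) and Cfi (-0.44), each at an unadjusted p of 0.00876 or less. That fit counts the 2 arrays of a mouse almost as independent samples. Over 4 mice, limma gave an unadjusted p of 0.0273 for Serping1, 0.0289 for Cfi and 0.035 for C2. In both orientations only Serpina10, Cfb, Mbl1 and F2 were below 0, with F2 at -0.07 and -0.22. Within 1 orientation dye and genotype cannot be told apart, and the shares called over all features moved as well, to 12.6% lower and 4.66% higher on the Cy5 arrays alone and to 6.94% lower and 14.7% higher on the Cy3 arrays alone. On the Cy3 arrays alone all 8 called genes had a ratio below 0 at an unadjusted p under 0.05, and on the Cy5 arrays alone 2 of the 7 that could be fitted were below 0 and 0 were called lower. In the fit with a dye term, 7 of 30 genes were lower at an unadjusted p under 0.05 against 3.83% of its features, and Serpinf1 alone was higher against 2.8%.

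**Figure D4:**
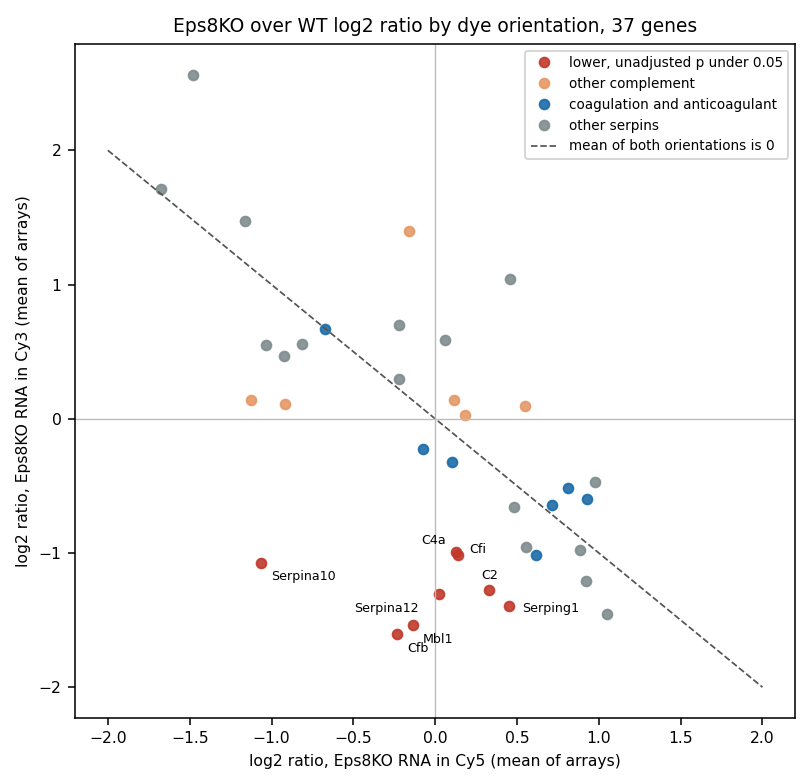
Mean log2 ratio of Eps8KO over the WT pool for 37 genes, on the x axis from arrays where Cy5 labelled Eps8KO RNA and on the y axis from those where Cy3 did, 1 point per gene; on the dashed line both orientations cancel to 0. The 8 genes called lower (red, named) lie below the line, and Serpina10, Cfb and Mbl1 are the named genes left of 0 on the x axis.

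Genes of the same pathways outside the symbols used were listed from knowledge of the pathways. Over all features 3.09% were called lower and 2.15% higher. Of 9 complement genes tested, 2 were called lower and 0 higher, with a median of -0.07. The 2 were clusterin (Clu, -0.56 ± 0.19 SD) and vitronectin (Vtn, -0.60 ± 0.22), plasma proteins that both keep the terminal complex out of membranes. Of 17 coagulation genes tested, 7 were called lower and 2 higher, against the same shares of all features, with a median of -0.39. The 7 included the fibrinogen chains Fga (-1.77), Fgb (-1.34) and Fgg (-1.56), which form the clot, and kininogen (Kng1, -0.37), the protease inhibitor Pzp (-0.44), Gas6 (-0.54), a ligand related to protein S, and the crosslinking enzyme Tgm2 (-0.41). The 2 higher were tissue factor (F3, 1.08), which starts clotting, and prekallikrein (Klkb1, 0.30). None of these had an adjusted p under 0.05 in limma, where the smallest, that of Fgb, was 0.346.

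Ratios to a pool give no expression level, so the tissue could not be checked by the level of its markers. The shares to set beside the counts are 3.09% of all features called lower and 2.15% higher. Of 10 hepatocyte markers tested 0 were called lower and 3 higher (Apoa1, Ass1 and Cyp3a11), with a median of 0.19. Of 7 Kupffer cell and macrophage markers 0 were called, with a median of 0.10, and of 8 endothelial markers 0, with a median of -0.06. Of 8 neutrophil markers 1 (Lcn2, -2.14) was called lower, with a median of -0.17. The other neutrophil markers were not called and ran from -1.07 (Ltf) to 0.08 (Mpo). Of 5 cholangiocyte markers 1 (Krt7, -1.51) was called lower, with a median of -0.05. Krt19, Cftr, Epcam and Sox9 lay between -0.06 and 0.14. Of 3 exocrine pancreas markers 1 (Cpa1, -0.95) was called lower, with a median of -0.17. Stellate cell, platelet, red blood cell and T and B cell markers held 0 calls. C1q chains are made by macrophages and most other complement and coagulation proteins by hepatocytes. The part of cell composition in these ratios was not tested.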

How the data were processed

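Eps8KO liver RNA of 4 mice was compared with 1 WT pool on 8 arrays. The deposited log2 ratios are Cy5 over Cy3 of each spot, and their direction follows the dye labels of each sample. The authors' methods name total intensity normalisation in MIDAS, a background check, a tolerance policy and a flip dye check, and do not state whether the deposit was made before or after them. The genome build is not given in the sources used here. All 8 columns were mapped and 0 left out. Array number limits the precision, since scanner intensities were not analysed here.

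The sign was turned where Eps8KO RNA was in Cy3, each mouse was taken as the mean of its 2 arrays and each gene as the mean of its probes, and the 15455 features with values in all 4 mice were tested against 0 in R 4.3.3 with limma 3.58.1 (lmFit and eBayes, two-sided, Benjamini-Hochberg adjustment). The 1.6-fold limit follows the study. Names come from the platform's probe table, with all 40 genes matched by gene ID to RefSeq, and promoters from RefSeq in GRCm38.p6. The genes, lists and motifs were chosen with earlier results of these data known, and Mbl1 is also a gene the study lists. Mouse values were given for genes at an unadjusted p under 0.05 with 1 direction in all mice, for the 3 highest and 3 lowest others, and for genes with 2 or more probes. F10, C1qb, Mbl2, Serpinb8 and Serpinf1 were added after their values were seen.

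The naming was checked by the spread between arrays of the same orientation, without use of the Eps8KO ratio. A first scan of 229 probes over 401 shifts put the shift of 32 lowest overall but lowest in only 1 of 9 windows. The list of families was then rewritten, with most families kept, and the scan widened to 2001 shifts. The mean noise rank was 41.1% at this shift, 45.4% at the next lowest and 52.2% without a shift.

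The alternatives centred each array on its median, required all 8 arrays or only 3 mice, left out a mouse where its orientations differed by more than 1 on the log2 scale (flip dye filter), or used 1 orientation only, a dye term, 1 feature per probe, no moderation, limit values left out, a robust prior, names without the shift and each mouse left out. Array medians set to 0 together with all 8 arrays was chosen after seeing the data. The fit was tested on simulated data. Tables and figures were made with pandas 2.3.3, NumPy 2.4.6 and Matplotlib 3.10.9 under Python 3.11.15.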

Additional observations from a re-analysis of the deposited data

Results flagged for a closer look

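F12, the gene of clotting factor XII, had 1 mouse far from the others. Mouse 4 was at -0.155 on the log2 scale, while the other 3 lay between 0.232 and 0.276, and the gap was 0.899 of the whole range. Chance alone singles out about 1 in 20 groups in this way, and 37 genes were examined. F12 was not called in either direction, and mouse 4 was also the mouse with the lowest median over all 37 genes.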

How the results depend on the processing

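No paired analysis was possible because the labels hold 1 group, and each mouse is already a ratio to the same pool. All 8 called genes stayed below 0 at an unadjusted p under 0.05 with array medians set to 0, values in at least 3 mice, no moderation, limit values left out and a robust prior. With values in at least 3 mice 1 gene was higher, also at 1.6-fold. The flip dye filter left 6 genes and none of the 8, with 0 lower, 0 lower at 1.6-fold, a median of 0.036 and Serpinh1 at 0.036. With Cy5 alone (35 genes) 7 were lower and 10 higher, 6 and 7 at 1.6-fold, and the median was 0.11, while over all features 12.6% were lower and 4.66% higher with a median of -0.14. C2 (0.33), C4a (0.19), Cfi (0.14), Serpina12 (0.026), Serpinb6a (-0.22) and Serping1 (0.45) turned sign. With Cy3 alone (32 genes) 17 were lower and 3 higher, 13 and 1 at 1.6-fold, the median was -0.56 (all features 6.94% lower, 14.7% higher, median 0.20), and C1rl (0.089), Masp2 (-0.16) and Serpinh1 (0.47) turned. The dye term gave 1 higher and 1 at an adjusted p under 0.05. Names without the shift (36 genes) gave 2 lower, 1 higher, 1 lower at 1.6-fold and a median of 0.027. On the other side of 0 were C1qa (0.11), C1s1 (-0.056), C2 (0.86), C4a (0.30), Masp2 (-0.28), Serpina5 (2.00), Serpinb5 (-0.09), Serpinc1 (0.12), Serping1 (0.42) and Serpinh1 (0.10). The 2 lower were Serpina10 (-1.01) and Serpina12 (-0.64). Other spots thus gave both calls at values near those with the shift (-1.17 and -0.64). On all 8 arrays, and likewise with 1 feature per probe, C4a (0.038), Masp2 (-0.14) and Serpinh1 (0.019) turned; 1 feature per probe gave 5 lower at 1.6-fold. Centring with all 8 arrays, chosen after seeing the data, put C4a at 0.019 and Masp2 at -0.16. Without 1 mouse, 4 to 7 genes were lower (4 without mouse 4, 5 without mouse 2) and 0 to 2 higher (2 without mouse 2), 3 to 5 (5 without mouse 1) and 0 to 2 at 1.6-fold, 0 passed at an adjusted p under 0.05, the median ran from -0.16 to -0.07, and the lowest and highest means were -0.79 and 0.10 for Serpina5, -0.18 and 1.22 for Serpina6, and -0.21 and 0.005 for Serpinh1. The 8 called genes were below 0 in each of these cases, 4 to 6 of them at an unadjusted p under 0.05. The causes were not tested. The pool of 1 control sample, 4 mice and the lack of intensities limit what these ratios can show.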
